A study of Arabidopsis thaliana with 6 samples.

Results

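The genes described here code for proteins of the small (40S) subunit of the cytosolic ribosome of Arabidopsis thaliana. They were listed by locus, 45 genes of 19 protein families, and a gene was kept where the array's annotation pairs a probe with it alone. This held for 32 of the 45 genes, in 14 families, out of 16548 genes named in that annotation and 38408 probes on the array. No listed gene had more than 1 such probe. The 13 genes without a probe of their own were not analysed here. They are the 2 genes each of the S5, S6 and Sa families, the 3 genes of S18, the listed gene of S15, AT3G48930 and AT5G23740 of S11, and AT4G00100 of S13.

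The 40S subunit binds the mRNA, reads its codons against tRNAs and joins the large (60S) subunit for protein synthesis. Each of its proteins sits at a fixed place on the ribosomal RNA, and in plants each is usually encoded by several nuclear genes whose products are nearly alike. Growing and dividing plant cells make ribosomal proteins in large amounts, and the genes for them tend to be expressed together.

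RNA came from a suspension culture transformed with an estrogen-inducible VND1-GFP construct. VND1 is a NAC transcription factor of the family that starts the differentiation of xylem vessel elements, which thicken their walls and die. The 3 induced samples were given 5 µM estrogen for 24 h, and the 3 uninduced samples were kept for 24 h without it. All 6 carry the construct and were grown in the dark on a shaker at 124 rpm and 23 °C. No array holds estrogen-treated cells that lack the construct, so what VND1 did and what the hormone did cannot be told apart. Whether the 3 samples of a group came from separate cultures is not stated in the labels. The p-values therefore cover only the spread among these samples, and that spread may be technical.

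The values are log2 signals, 1 per probe and array. Array numbers form a run of 2 (induced and uninduced replicate 1) and a run of 4 (the other replicates), and the labels do not say what these numbers mark. The median of all probes was 6.08 to 6.15 in the run of 2 and 5.41 to 5.55 in the run of 4. Each result is therefore given for all 6 arrays and, where it bears on the result, within each run. Of the vessel markers, 2 of 13 were measured and both were higher on every induced array. PRX66 (AT5G51890), a class III peroxidase, differed by 5.64 and TBL33 (AT2G40320), a xylan acetyltransferase, by 5.04 on the log2 scale (limma adjusted p = 0.00339 and 0.00199). RCA, which codes for rubisco activase, was the measured 1 of 4 photosynthetic markers and lay between 4.25 and 5.29 on the 6 arrays, below each array's median.

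In the values as deposited, all 32 measured 40S genes had a lower mean in induced cells, by small amounts, and none passed the test. The median of the 32 differences, induced minus uninduced, was -0.18 on the log2 scale, or -11.6%, against -0.024 over all 38408 probes. Among all probes 54.2% had a lower mean in induced cells, and among the brightest 25% of probes 60.9%. After each array was centred on its median, 29 of the 32 genes were negative, beside 49.7% of probes. With quantile normalization 30 were negative, beside 52.3%. With 1 array left out, the share of all probes moved widely. It was lowest without uninduced replicate 1, at 35.7%, with 27 of the 32 genes negative. It was highest without induced replicate 1, at 76.6%, with 30 of the 32 negative. The median 40S gene lay at 9.78 on induced replicate 1 and at 9.91 on uninduced replicate 1, the pair of the run of 2. In the run of 4 it lay at 9.52 and 9.53 on the induced arrays and at 9.73 and 9.74 on the uninduced ones. The induced array or arrays were thus lower within each run. The median difference was -0.14 within the run of 2, with 26 of 32 genes negative, and -0.20 within the run of 4, with 30 of 32 negative. Over all probes 45.7% were negative in the run of 2 and 58.1% in the run of 4.

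In the limma test with Benjamini-Hochberg adjustment over all probes, 0 of the 32 genes were lower and 0 higher at an adjusted p under 0.05. Of all probes, 0% were called lower and 0.534% higher. The lowest adjusted p was 0.795. At an unadjusted p under 0.05, limma had 1 of the 32 genes lower and 0 higher, beside 2.74% and 3% of all probes. With the run as a block, 0 genes were called in either direction, beside 0.0338% of all probes lower and 0.992% higher, and 4 were lower at an unadjusted p under 0.05, beside 8.49% of all probes. Standard errors of the 32 differences were 0.12 to 0.67 without the block and 0.076 to 0.22 with it. The difference was smaller than its error for 13 of the 32 genes without the block and for 6 with it.

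Induced arrays lay fully below uninduced arrays for 7 of the 32 genes (21.9%) and fully above for 0, against 7.81% of all probes below and 5.7% above. Among the brightest 25% of probes, which hold 25 of the 32 genes, 5 of 25 genes and 17.3% of probes lay fully below, so on this measure the share of bright 40S genes was near that of other bright probes. In the run of 4 alone the count was 25 of 32, against 28.4% of all probes, and without induced replicate 1 it was 23, against 26.3%. After each array was centred on its median, 1 of the 32 genes lay fully below, against 3.57% of probes. This was AT2G31610 of S3, which is not among the 7 (named after its value was seen). Counted within each run, induced arrays were below uninduced ones in both runs for 20 genes (62.5%) and above in both for 0, against 18.5% and 13.2% of all probes. Among the brightest 25% of probes the shares were 16 of 25 genes and 32% of probes.

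**Figure D1:**
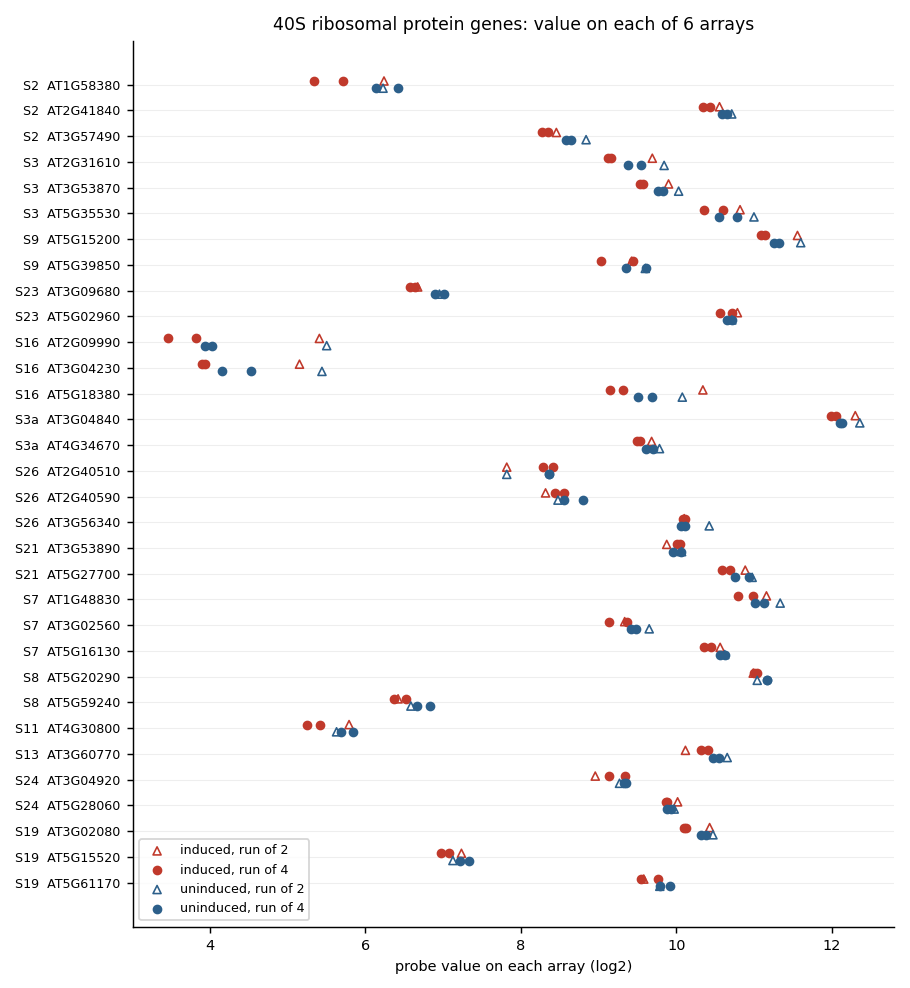
Probe value (log2, horizontal axis) of the 32 measured 40S genes on each of the 6 arrays, by family, with induced arrays in red and uninduced in blue. Open triangles are the run of 2 and filled circles the run of 4. Most genes keep to a narrow band on all arrays, while the S16 genes AT2G09990 and AT3G04230 are on average more than 1 unit higher in the run of 2.

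Probe signals depend on how well each probe binds its target. Levels here are therefore probe signals and are not read as transcript amounts of one gene against another. By their mean over 6 arrays, 18 of the 32 genes were among the brightest 10% of probes, and 29 lay above the median probe. The genes at or below the median probe were AT2G09990 and AT3G04230 of S16 and AT4G30800 of S11. The mean over 6 arrays ran from 4.36 for AT2G09990 to 12.16 for AT3G04840 of S3a.

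S2, S3 and S9 surround the channel through which mRNA enters the subunit. All 8 measured genes of these families had lower means in induced cells, with a median difference of -0.21. The other groups of families by place in the subunit were also all negative, with medians from -0.26 to -0.094. The S2 gene AT1G58380 (XW6) had the most negative difference of the 32. It read 6.24, 5.34 and 5.72 on induced replicates 1 to 3 and 6.23, 6.14 and 6.42 on the uninduced ones. The run of 4 was apart, with both induced arrays low, but in the run of 2 the values were alike. The difference was -0.49 ± 0.26 (SE, limma adjusted p = 0.986), being 0.012 in the run of 2 and -0.75 in the run of 4. AT1G58380 has near copies, and 3 further probes are each paired with it and 3 other genes. These 3 probes share the same values, 11.30, 10.83 and 10.86 on induced arrays and 11.46, 11.05 and 11.12 on uninduced arrays, a difference of -0.21. Signal of the copies cannot be divided among them.

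The S2 gene AT3G57490 read 8.46, 8.28 and 8.35 on induced arrays and 8.84, 8.64 and 8.59 on uninduced arrays. Every induced array was below every uninduced one. Its difference was -0.33 ± 0.14 (SE), with a limma adjusted p of 0.873, or of 0.195 when the run was a block. It was the gene called lower when the block was combined with a variance trend and robust estimation (limma adjusted p = 0.0486, beside 1.1% of all probes called lower in that fit). The third S2 gene, AT2G41840, was also lower on every induced array, at 10.44 ± 0.11 against 10.65 ± 0.065 in uninduced cells (SD, n = 3). In S3, the differences were -0.27, -0.21 and -0.18 for AT2G31610, AT3G53870 and AT5G35530, and in S9 they were -0.13 for AT5G15200 and -0.22 for AT5G39850. The groups overlapped for each of these S3 and S9 genes, where AT2G31610 and AT5G15200 also differed between the runs (0.46 and 0.38 higher in the run of 2, limma adjusted p = 0.0243 and 0.0284).

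S23 reaches into the decoding centre, where codon and anticodon are matched, and bears on the accuracy of translation. Its 2 genes gave unlike differences. AT3G09680 read 6.67, 6.58 and 6.64 on induced arrays and 6.95, 6.90 and 7.01 on uninduced arrays. Every induced array was below every uninduced one, with SDs of 0.047 and 0.056 within the groups. The difference was -0.32 ± 0.12 (SE), or -20.0%, with an unadjusted limma p of 0.0344, the lowest of the 32, and an adjusted p of 0.795. Leaving out any 1 array kept it between -0.35 and -0.29. AT5G02960 read 10.79, 10.56 and 10.71 on induced arrays and 10.71, 10.66 and 10.71 on uninduced arrays. These values overlap, and the difference was -0.0077 ± 0.12 (SE), turning to 0.018 when arrays were centred and 0.019 under quantile normalization.

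S16 has a tail that reaches the tRNA in the peptidyl site. Its 3 genes had the largest spread over the 6 arrays of all 32, with SDs of 0.87, 0.65 and 0.46. AT2G09990 read 5.41, 3.82 and 3.46 on induced arrays and 5.50, 3.95 and 4.02 on uninduced arrays. AT3G04230 read 5.15, 3.95 and 3.90 against 5.44, 4.53 and 4.15. AT5G18380 read 10.34, 9.15 and 9.31 against 10.08, 9.50 and 9.68. In all 3 the highest value of each group was the array of the run of 2, and the groups overlapped. The run of 2 was higher by 1.64, 1.17 and 0.80 in that order (limma adjusted p = 0.00462, 0.00639 and 0.0266). Over all probes the median was 0.42 higher in the run of 2, and 36.8% of probes were called higher there. Within the run of 4 the 3 genes were lower in induced cells by similar amounts, at -0.34, -0.42 and -0.36. AT5G18380 was 0.26 higher on the induced array of the run of 2.

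S3a and S26 lie where mRNA leaves the subunit. The S3a genes AT3G04840 and AT4G34670 gave -0.083 and -0.13, lower in both runs. In S26, AT2G40510 gave 7.82, 8.41 and 8.29 on induced arrays and 7.82, 8.37 and 8.36 on uninduced arrays. Its induced and uninduced values were close to each other in each run, with a difference of -0.011 ± 0.24 (SE) that turned to 0.015 after centring. It was the 1 gene of the 32 that was lower in the run of 2 by limma, by -0.54 (adjusted p = 0.0119), where the median probe was 0.42 higher. The other S26 genes, AT2G40590 and AT3G56340, gave -0.18 and -0.094. Over the 32 genes, 5 were higher and 1 lower in the run of 2, beside 36.8% and 0.599% of all probes. These counts moved with the scaling. After centring, 2 were higher and 24 lower, beside 9.38% and 29.3% of probes. With quantile normalization, 1 was higher and 2 lower, beside 4.34% and 4.23%. With a variance trend and robust estimation, 10 were higher and 1 lower, beside 42% and 1.08%.

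In S21, AT3G53890 read 9.88, 10.05 and 10.01 on induced arrays and 10.07, 10.06 and 9.96 on uninduced arrays. The groups overlapped and the difference was -0.049 ± 0.12 (SE), with 0.022 in the run of 4. AT5G27700 of the same family gave -0.17. In S24, a protein needed for early processing of the small subunit's rRNA precursor in human cells, AT5G28060 read 10.02, 9.88 and 9.87 on induced arrays and 9.97, 9.94 and 9.89 on uninduced arrays. It had the smallest spread of the 32 genes over the 6 arrays (SD 0.058), and its difference of -0.0077 ± 0.12 (SE) turned to 0.018 after centring. Its paralogue AT3G04920 gave -0.18.

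S13, whose bacterial counterpart binds rRNA early in assembly, was measured by AT3G60770. This gene read 10.12, 10.31 and 10.41 on induced arrays and 10.65, 10.47 and 10.55 on uninduced arrays. Every induced array was below every uninduced one, most of all in the run of 2, where the difference was -0.54, against -0.15 in the run of 4. Over all arrays it was -0.28 ± 0.14 (SE, limma adjusted p = 0.962). S11, whose bacterial counterpart also binds rRNA directly, was measured by AT4G30800, at -0.23 overall with 0.16 in the run of 2 and -0.43 in the run of 4.

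The S7, S8 and S19 families held the remaining genes. S19 is required for maturation of the small subunit's rRNA in human cells. S7 gave -0.18 for AT1G48830, -0.24 for AT3G02560 and -0.15 for AT5G16130, and AT3G02560 was lower on every induced array. S8 gave -0.12 for AT5G20290 and -0.25 for AT5G59240, the latter lower on every induced array. S19 gave -0.17 for AT3G02080, -0.13 for AT5G15520 and -0.20 for AT5G61170, and among these the last was lower on every induced array. Over the 32 genes, 22 differences lay between -0.3 and -0.1, 4 were more negative and 6 were nearer to 0. Their SD was 0.11.

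**Figure D2:**
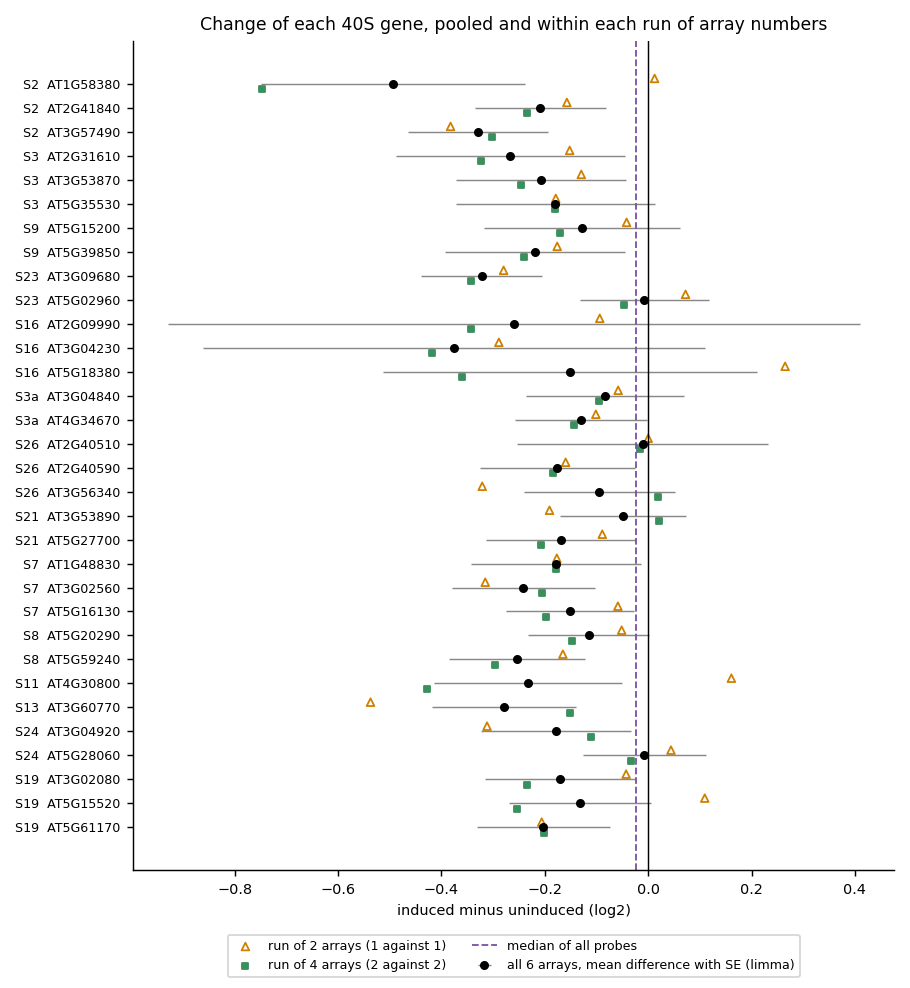
Difference between induced and uninduced arrays (log2, horizontal axis) of each 40S gene, with black points and SE bars from the limma fit of 6 arrays, open triangles for the run of 2 and squares for the run of 4. All 32 black points lie left of 0, and the dashed line marks the median of all probes at -0.024.

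Paralogues of a family were compared by the difference between their probes on the same array, which removes what an array adds equally to both. An array effect that varies with signal stays in. On induced replicates 1 to 3 the 5th percentile of all probes was 3.19, 2.39 and 2.41, and the 95th was 10.72, 10.49 and 10.50. On uninduced replicates 1 to 3 the 5th was 3.12, 2.42 and 2.47, and the 95th was 10.7, 10.5 and 10.5. The larger differences in scale were thus between the runs, each of which holds both groups. There were 24 pairs in 12 families. The median size of the change in that difference between induced and uninduced arrays was 0.091. It was largest for S23. AT3G09680 minus AT5G02960 was -4.11, -3.98 and -4.07 on induced arrays and -3.76, -3.76 and -3.70 on uninduced arrays, a change of -0.31, with -0.35 in the run of 2 and -0.30 in the run of 4. The groups were apart. The exact two-sided permutation p was 0.10, the smallest that 3 against 3 arrays allow, and 0.873 after Benjamini-Hochberg adjustment over the 24 pairs, so no pair could pass. The groups were also apart for S8, where AT5G20290 minus AT5G59240 changed by 0.14, from 4.43 ± 0.09 to 4.57 ± 0.05 (SD, n = 3). In the other 22 pairs the groups overlapped. Groups are apart in a share of 0.10 of the arrangements of 3 against 3 arrays. The 2 of 24 pairs are near that share. The S23 and S8 pairs each join a dim and a bright probe, with means of 6.79 and 10.69 and of 6.57 and 11.07. The part of signal level in their changes was not tested. The change had the same direction in both runs in 12 of the 24 pairs, as unrelated directions would give on average. The number of pairs apart was 6 without induced replicate 1 or induced replicate 3 and 4 without uninduced replicate 3. Fewer arrays are apart more often by arrangement alone, so these counts are not set against the 2 of all 6 arrays.

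**Figure D3:**
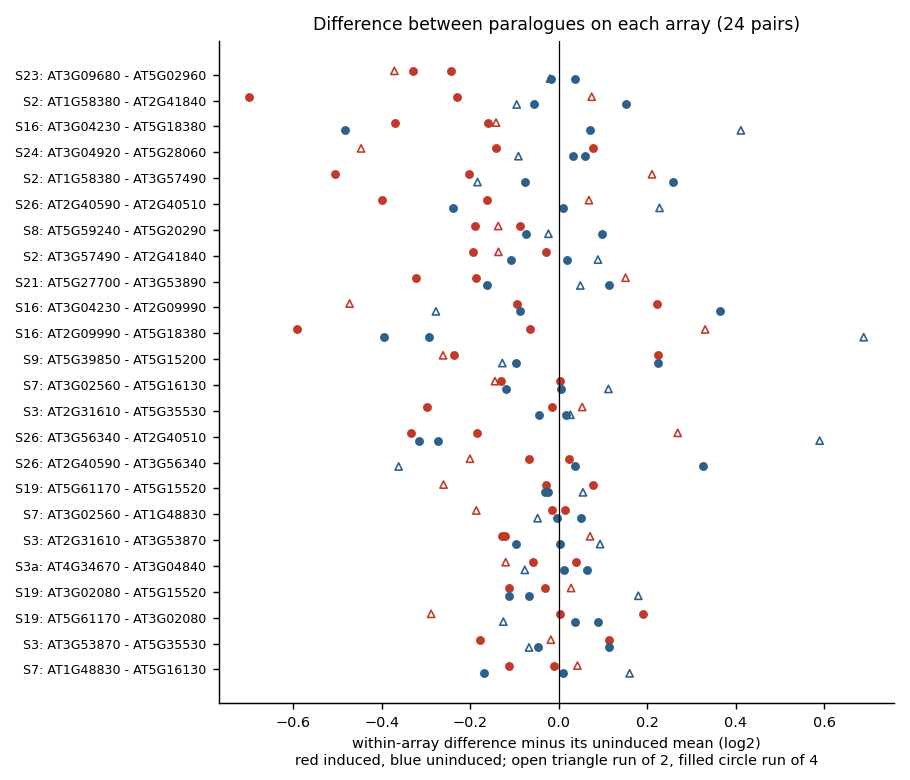
Difference between 2 paralogues on each array, less its mean on the uninduced arrays (log2, horizontal axis), for the 24 pairs ordered by the size of the change, with the gene of the more negative difference first. Red marks induced and blue uninduced arrays, open triangles the run of 2, and the colours separate fully only for the S23 pair at the top and the S8 pair.

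The 40S genes were next set beside all probes of like signal, in bins of 0.5 on the log2 scale of the mean over 6 arrays. Of the 32 genes, 28 lay below the median difference of the probes in their bin, 18 below the 25th percentile and 1, AT1G58380, below the 5th. The 25 genes with a mean of at least 8 had a median difference of -0.17 and the 7 dimmer ones -0.26, with a range from -0.49 to -0.13 among the dimmer ones. In 8 of the 12 families with several measured genes, the gene with the dimmest probe had the most negative difference, and in 4 another gene had. These families hold 2 or 3 measured genes each, so the dimmest is often the most negative by arrangement alone. The count was not tested. The spread of all probes also narrowed with signal, with an interquartile range of 0.36 for the 12318 probes between 4 and 6 and 0.22 for the 2504 probes between 10 and 12.

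**Figure D4:**
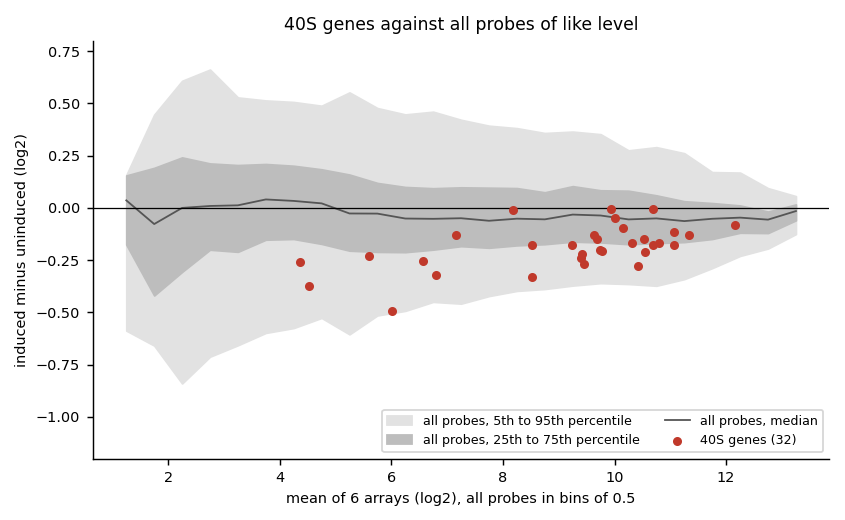
Induced minus uninduced difference (log2, vertical axis) against the mean of 6 arrays (log2, horizontal axis). Grey bands hold the 5th to 95th and the 25th to 75th percentiles of all probes in bins of 0.5, the line is their median, and the 32 red points are the 40S genes, of which 28 lie below that median.

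Other genes of the ribosome and of translation were taken from lists. Of 49 further 40S genes listed, 25 were measured, and 21 of these were negative with a median of -0.11. The median was 0.013 in the run of 2 and -0.17 in the run of 4. In the run of 2, 11 of the 25 were negative (44%), beside 45.7% of all probes. In the run of 4, 24 were (96%), beside 58.1%. These further 40S genes were lower in both runs in 8 of 25 cases, beside 18.5% of all probes and 32% of the brightest 25%. They lay fully below on induced arrays in 2 cases, beside 7.81% and 17.3%. On both counts they were thus not apart from the brightest probes. RPS27aA (AT1G23410), which encodes a ubiquitin fusion, gave -0.62 ± 0.43 and RPS15aC (AT2G39590) -0.45 ± 0.20 (SE), while AT2G17360 and AT5G07090, both of S4, gave -0.24 and -0.23. Of 124 listed genes of the large subunit, 84 were measured, with 81 negative and a median of -0.16. These large subunit genes were lower in both runs in 49 of 84 cases, beside 18.5% of all probes and 32% of the brightest 25%. They lay fully below on induced arrays in 14 cases, beside 7.81% and 17.3% of these probes. In both lists 0 genes passed the limma test in either direction, beside 0% of all probes lower and 0.534% higher. At an unadjusted limma p under 0.05 there were also 0, beside 2.74% lower and 3% higher. With the run as a block 0 genes were called, beside 0.0338% lower and 0.992% higher. At an unadjusted p under 0.05, 1 of 25 and 12 of 84 were then lower, beside 8.49% of all probes. The block with a variance trend and robust estimation called 0 and 1 lower, beside 1.1%.

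Ribosome assembly factors gave larger differences. Of 29 listed, 15 were measured, and all 15 were negative, with a median of -0.30, or -18.7%. Induced arrays lay fully below uninduced arrays for 10 of the 15, against 7.81% of all probes and 17.3% of the brightest 25%. AT3G05060, a NOP58 homologue of the particles that methylate rRNA, read 10.40, 10.33 and 10.02 on induced arrays and 10.96, 10.75 and 10.78 on uninduced arrays. It differed by -0.58 ± 0.16 (SE), with a limma adjusted p of 0.593, or of 0.149 when the run was a block. RRP7 (AT5G38720), which acts in maturation of the small subunit, gave -0.41 ± 0.15, RH10 (AT5G60990), an RNA helicase of rRNA processing, -0.40 ± 0.12 and AT5G27120, another NOP58 homologue, -0.38 ± 0.14 (SE). None of the 15 passed the limma test, without or with the block, while 4 were lower at an unadjusted p under 0.05, beside 2.74% of all probes. The block together with a variance trend and robust estimation called 5 of them lower, beside 1.1% of all probes.

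Translation initiation factors were nearer to 0, with 10 of 30 measured, 7 negative and a median of -0.056. AT4G20980, a subunit of the initiation factor eIF3, gave -0.24 ± 0.24, AT2G46290, also of eIF3, -0.21 ± 0.13, AT2G40290, of eIF2, -0.16 ± 0.12 and AT1G36730, an eIF5 gene, -0.15 ± 0.26 (SE). Of 7 listed genes of the TOR kinase pathway and ribosomal gene regulation, 2 were measured, and the RAPTOR genes AT3G08850 and AT5G01770, which code for partners of TOR, gave -0.033 and 0.057. The 8 listed elongation genes had no probe of their own and were not analysed here. None of the initiation or TOR genes passed the test. Differences between these lists and the 40S genes were not tested.

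**Figure D5:**
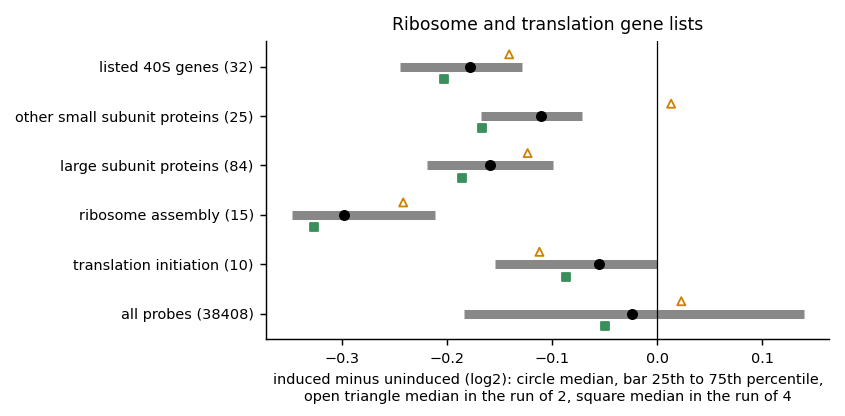
Median difference between induced and uninduced arrays (log2, horizontal axis) of the 32 listed 40S genes, 4 other gene lists and all probes, with the number of genes or probes in brackets. Circles are medians over 6 arrays, grey bars the 25th to 75th percentiles of genes, triangles and squares the medians in the runs of 2 and 4, and ribosome assembly stands lowest at -0.30.

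The 2 measured of 4 markers of dividing cells, the mitotic kinase genes AUR1 and AUR2, lay fully lower on induced arrays. So did 7.81% of all probes and 17.3% of the brightest 25%. AUR1 was 9.85 ± 0.06 in induced and 10.19 ± 0.26 in uninduced cells, and AUR2 8.49 ± 0.18 and 8.84 ± 0.04 (SD, n = 3), with limma adjusted p of 0.957 and 0.865. Their part in the result for the 40S genes was not tested. In such bulk RNA, fewer cells of a type and less RNA per cell cannot be told apart.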

How the data were processed

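Per the labels, biotin-labelled RNA was measured on AraGene arrays. The submitters' processing notes name Affymetrix Expression Console 1.3, and the deposited values were taken as log2 because they run from 0.30 to 14.05. Not given in the sources used here are the log base, the genome build and how probes were summarised, background-corrected and normalized. Coordinates are therefore left out.

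Groups follow the labelled stimulation, and replicate numbers only name samples. Genes were assigned to probes by the array's annotation with a RefSeq gene table of the TAIR10.1 assembly. Of the 38408 probes, 16722 have 1 gene, 759 several and 20927 none there. These tables give most 40S genes by locus only, so families and roles follow the usual Arabidopsis nomenclature. No sequences are shown because none were among the files used here.

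All probes were fitted with limma 3.58.1 in R 4.3.3 (lmFit and eBayes, no trend, not robust) on the values as deposited, and p-values were adjusted over all probes by Benjamini-Hochberg with a threshold of 0.05. The fit was tested on simulated data. Paralogue pairs used an exact permutation test (scipy 1.17.1). The number of arrays limits the precision. The alternatives tried were quantile normalization, centring, a variance trend with robust estimation, filters on dim probes, the run as a block, the run of 4 alone, each array left out and another threshold. Values in every array are printed for the 5 most and 3 least negative 40S genes, any gene passing the test (without or with the block), the 3 with the largest and 2 with the smallest SD the paralogue pair of largest change and the measured genes of S5, S6, S18 and Sa (none). Genes in other lists are named by size of change, up to 4 per list. The 40S genes and all lists were chosen with earlier results of these data known, and the large subunit list was added after the other lists.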

Additional observations from a re-analysis of the deposited data

How the results depend on the processing

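The number of 40S genes past the threshold stayed at 0 in both directions under every alternative run, except that 1 (AT3G57490) was lower with the run as a block, a variance trend and robust estimation together. Their median difference stayed negative throughout, from -0.26 to -0.11 with each array left out. It was -0.15 after centring, -0.16 after quantile normalization and -0.20 in the run of 4 alone. The median of all probes moved as well, from -0.19 without induced replicate 1 to 0.11 without uninduced replicate 1. For all probes it was 0.0016 after centring, -0.013 after quantile normalization and -0.05 in the run of 4 alone. The count with induced arrays fully below was 1 after centring, with or without the block, 25 in the run of 4 (28.4% of probes), 20 when counted within each run (an alternative chosen after seeing the data), and 7 to 23 with each array left out (9.06% to 26.3% of probes), the highest of both being without induced replicate 1. Paralogue pairs with the groups apart numbered 7 in the run of 4 and 2 to 6 with each array left out, where fewer arrays are apart more often by arrangement alone. 40S genes higher in the run of 2 numbered 10 with trend and robust estimation, 1 with quantile normalization and 2 after centring, and those lower numbered 2 with quantile normalization and 24 after centring.

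Over all probes, the counts higher and lower were 205 and 0. They were 351 and 14 with trend and robust estimation, 318 and 5 with quantile normalization, 381 and 13 with the block, 802 and 423 with the block, trend and robust estimation, and 376 and 11 with the block and centring. Without the dimmest 25% of probes 1 was lower, among the brightest 25% 37, in the run of 4 alone 3, and at an adjusted p under 0.10 1. With each array left out, 56 to 154 were higher and 0 lower.

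Centring, quantile normalization, the run of 4 alone and each array left out could move a single-gene difference. Of 288 such differences, 22 had the other sign, and none passed the threshold. AT5G02960 and AT5G28060 gave 0.019 and 0.015 with quantile normalization and 0.018 each after centring, with or without the block, where AT2G40510 gave 0.015. In the run of 4 AT3G53890 gave 0.022 and AT3G56340 0.019. With each array left out the ranges were -0.85 to 0.25 for AT2G09990, -0.52 to 0.075 for AT5G18380, -0.19 to 0.17 for AT2G40510, -0.16 to 0.019 for AT3G56340, -0.083 to 0.0019 for AT3G53890, -0.057 to 0.053 for AT5G02960 and -0.054 to 0.019 for AT5G28060. The cause of these moves was not tested. No listed 40S gene had several probes of its own, so the choice of probe changed no value. The labels give no replicate numbers, so no pairing by number was made, and the run of array numbers was the block used.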
